A study of Mus with 15 samples.

Results

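The comparison of cocaine with saline in Maged1 wild-type (WT) thalamus rests on 6 lists of H2Aub peaks, 3 from cocaine-treated and 3 from saline-treated mice, chosen by the genotype and treatment in the sample labels out of 15 samples in the series, 11 of which came with a peak list. H2Aub is histone H2A carrying 1 ubiquitin, and it was profiled by ChIPmentation, an immunoprecipitation of chromatin in which the Tn5 transposase inserts the sequencing adapters while the chromatin is still on the beads. Both groups carried the loxP-flanked Maged1 allele (genotype Maged1 Loxp in the labels) and are read here, from that label and the study's description of its controls, as mice that lack the Vglut2-Cre driver used to delete the gene in the cKO mice. The labels of these samples name no Cre. Mice were 2 to 4 months old, and all of them were first injected with saline for 3 days. Over the next 5 days 1 group received cocaine at 20 mg/kg by the intraperitoneal route and the other went on with saline. Each library was made from 3 to 4 pooled thalami per the labels (the study's methods give a lower minimum), so a library is a pool of animals and of all cell types of the thalamus, and a larger share of cells with the mark cannot be told apart from more of the mark per cell. A peak list of a chromatin mark does not measure expression, so the tissue label could not be checked against marker genes. The question was which genes gain or lose length under H2Aub peaks after repeated cocaine.

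Ubiquitin is placed on H2A by Polycomb repressive complex 1 (PRC1), whose catalytic subunits are Ring1 and Rnf2, and is removed by deubiquitinases such as Usp16 and the Bap1 complex. The mark is best known from broad domains over silent developmental regulators, such as the Hox clusters and other homeobox genes, which neurons of the adult brain keep repressed. Maged1 is a scaffold protein that the study links to Usp7, a deubiquitinase, and to this mark.

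A gene was taken here as its annotated body plus 5 kb on each side (its window), for the 21887 protein-coding genes of the mouse GRCm38.p6 annotation, which shares its coordinates with mm10. For each library the number of base pairs of the window under peaks is called its covered length. The cocaine lists held 21105, 26055 and 15874 peaks covering 17.2, 15.0 and 10.4 Mb, and the saline lists held 23748, 8955 and 12114 peaks covering 11.1, 5.55 and 8.41 Mb. Total input was sampled per genotype and treatment, not per library, and the study's methods do not state which input each list was called against. If the lists of a group shared an input, a difference between inputs cannot be told apart from a difference between treatments. The lists hold no read counts, so the depth of each library is unknown. The study states only a minimum number of reads for all samples. A longer list from more reads cannot be told apart from a longer list from more marked chromatin. Most results were therefore also computed with each list cut, from its most significant peak down, to the covered length of the shortest list (5.55 Mb, equal covered length) or to its number of peaks (8955, equal peak number). The shortest list, of saline library 2, was used whole in these cuts, and its weakest kept peak had a −log10 p of 3.95, against 4.73 to 5.67 in the other lists at equal covered length. 

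With all peaks, the median covered length of a library's own covered genes was longer in each cocaine library, while the number of genes touched overlapped between the groups. Peaks touched 5114, 6080 and 4627 genes in the cocaine libraries and 5696, 3297 and 3639 genes in the saline libraries. The ranges overlapped, and the difference of 0.36 ± 0.27 on the log2 scale (SE, n = 3 and 3) gave p = 0.30 (exact permutation test, two-sided, smallest possible p 0.10). Inside the gene windows together, cocaine libraries had 11.7, 10.6 and 7.65 Mb under peaks and saline libraries 7.90, 4.37 and 6.03 Mb, with cocaine library 3 below saline library 1 (ratio of geometric means 1.66, exact permutation p = 0.20). The median covered length of a covered gene was 1129.5, 836 and 761 bp in the cocaine libraries and 587.5, 520 and 679 bp in the saline libraries. Here the groups did not overlap, and p was the smallest the design allows (0.10, exact permutation test, 0.174 after Benjamini-Hochberg adjustment over 33 such tests). Peaks of at least 5 kb numbered 372, 281 and 242 in the cocaine libraries and 218, 125 and 213 in the saline libraries, again without overlap (exact permutation p = 0.10).

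At equal covered length the picture of gene numbers turned around. Peaks then touched 1034, 1821 and 2094 genes in the cocaine libraries and 2434, 3297 and 2051 in the saline libraries (log2 difference −0.69, exact permutation p = 0.20). The median covered length of a covered gene was still longer in each cocaine library, at 2300, 1183 and 883.5 bp, than in each saline library, at 708.5, 520 and 786 bp. Because this cut fixes the total length, fewer genes touched and more length per touched gene are not independent results. Gains at some genes are also largely set off by losses at others. Summed over genes, the difference was 0.157 Mb, against 4.40 Mb with all peaks. Of the covered length, 73.5, 45.1 and 38.4% lay in peaks of at least 5 kb in the cocaine libraries, and 32.7, 16.7 and 35.4% in the saline libraries. Cocaine library 1, with the longest single peak (69928 bp), was the farthest out in each of these measures. At equal peak number, genes with a peak differed little, at 3423, 3579 and 3465 in cocaine and 3380, 3297 and 3105 in saline libraries, without overlap (exact permutation p = 0.10).

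**Figure D1:**
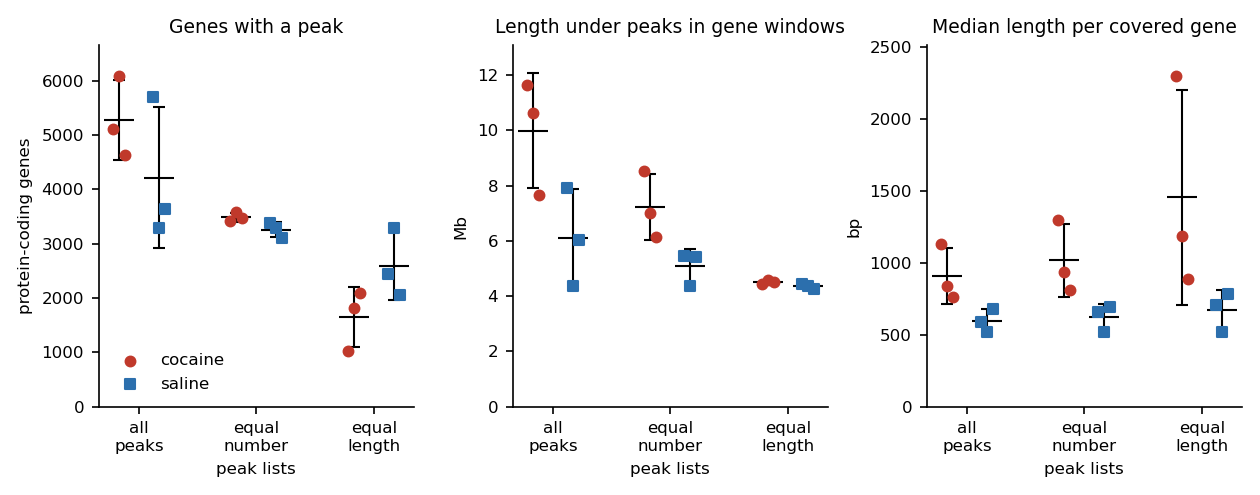
Genes with a peak (left), Mb under peaks in gene windows (middle) and median covered length in bp per covered gene (right) for the 3 cocaine (circles) and 3 saline (squares) libraries, with all peaks and with lists cut to equal peak number or equal covered length; bars are mean and SD. The cocaine libraries touch fewer genes than most saline libraries once the lists are equally long (1034 to 2094 against 2051 to 3297), while their median covered length per gene stays above every saline library. With the total length fixed, these measures are not independent.

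Sorted by the number of libraries with a peak, 13687 protein-coding genes had none and 8200 had at least 1. Of the latter, 3657 had a peak in more cocaine than saline libraries, 1434 in more saline than cocaine libraries and 3109 in the same number of both. A peak in all 3 cocaine and no saline libraries was found for 142 genes (0.649% of all protein-coding genes), and the converse for 10 genes (0.0457%). Genes with a peak in all 6 libraries, 2087 in number, held 70.1% of the summed gain of 4.40 Mb, the 3657 genes with a peak in more cocaine than saline libraries held 31.0%, and the 142 genes with peaks in cocaine libraries only held 1.77%. In these 2087 genes covered length was 1.84 times as long in cocaine as in saline libraries (log2 difference 0.88 ± 0.36, SE, n = 3 and 3, exact permutation p = 0.20). Their median covered length was 3088, 2989 and 2005 bp in the cocaine libraries and 2028, 974 and 1324 bp in the saline libraries, with cocaine library 3 just below saline library 1. Their widest peak had a median width of 1833, 1553 and 1132 bp against 994, 638 and 795 bp, without overlap. The number of peaks per gene did overlap, with means of 4.16, 5.11 and 3.75 in cocaine and 4.95, 2.76 and 3.14 in saline libraries.

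The count of gained genes leaned on the saline library with the most peaks. Of the 501 genes with a peak in all cocaine libraries and in 1 saline library, 386 (77.0%) had that peak in saline library 1. In the lists cut to equal covered length, genes with a peak in all cocaine and no saline libraries numbered 4 (0.0183%), against 124 genes (0.567%) with the converse pattern.

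**Figure D2:**
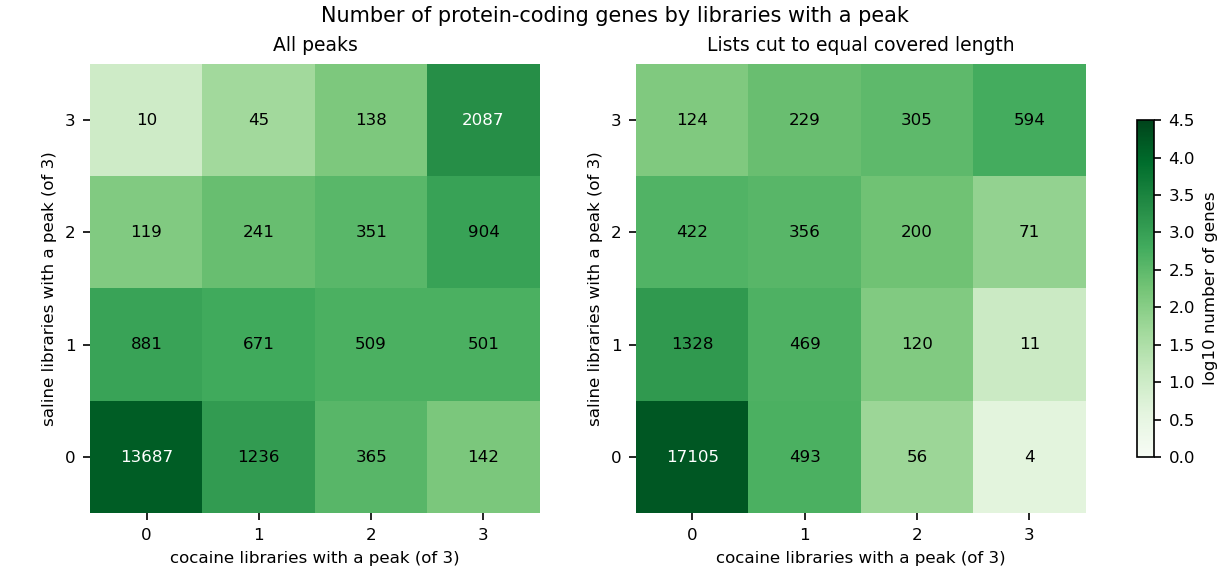
Number of protein-coding genes by how many of the 3 cocaine libraries (horizontal) and of the 3 saline libraries (vertical) had a peak in the gene window, with all peaks (left) and at equal covered length (right); shading is the log10 number of genes. With all peaks the bottom right corner (142 genes, cocaine only) holds more than the top left (10 genes, saline only), and at equal covered length the corners hold 4 and 124.

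By covered length, 1272 genes (5.81%) were longer in each cocaine than in each saline library, and 24 (0.11%) were shorter in each. When each library's covered lengths were scaled to its total, the counts were 619 and 203. At equal peak number they were 730 and 66, and at equal covered length 144 (0.658%) and 220 (1.01%), so that 39.6% of the genes called were longer in cocaine. That balance rested on cocaine library 1, without which 338 genes were longer and 264 shorter at equal covered length. Of the 1272 genes, 638 had a peak in all 6 libraries, 528 were also called longer at equal peak number, and 104 at equal covered length, where 31 of them were called shorter. The genes called longer at equal covered length had short and densely covered windows, with a median of 20.9 kb, of which a median of 24.8% was covered in cocaine and 15.2% in saline libraries with all peaks. The genes called shorter at equal covered length had a median window of 39.7 kb, of which 4.38% was covered in cocaine and 3.03% in saline libraries with all peaks.

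Across the 6083 genes with a peak in at least 2 of the 6 libraries, covered length rose at 161 genes (2.65%) and fell at 0 (0%) in a limma fit of log2(covered bp + 200) at an adjusted p under 0.05. At an unadjusted p under 0.05, limma gave 1137 longer and 8 shorter genes. An SE printed beside a limma p is limma's moderated SE, drawn toward a trend over all genes tested. It is not the replicate SE of that gene, and the p still rests on 3 against 3 pools. The median log2 difference over all genes tested was 0.65, so the 161 genes stand on top of a shift common to the fit, which was 0.24 after scaling to total length and −0.23 at equal covered length. In limma at equal covered length, 5 of 2961 genes rose (0.169%). The number of genes that rose depended on single libraries, being 12, 20 and 66 without cocaine library 1, 2 or 3, and 783, 70 and 147 without saline library 1, 2 or 3.

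Genes with H2Aub in cocaine libraries only were covered over short stretches, with a median of 499 bp over the 142 genes. The longest mean was that of Tmem235, a transmembrane protein gene on chromosome 11 (117860752 to 117865543), with 2370, 1612 and 902 bp in the cocaine libraries and 0 bp in every saline library. Next was Chrm1 on chromosome 19 (8664005 to 8683606), the gene of the M1 muscarinic acetylcholine receptor, with 570, 1882 and 1311 bp against 0 bp. Both were empty in the saline lists, but an uncalled window does not show that the mark was absent. Krt79, a keratin gene, had 1583, 1497 and 521 bp in the cocaine libraries, and Matn3, which encodes an extracellular matrix protein, had 1756, 900 and 856 bp. These genes were chosen for this pattern, so no test is given for them. The other genes with the longest means were Gm19402, Fhl3, Krt82, Rai1, Osbp2 and Dnah11. At equal covered length, Tmem235 kept 149 bp in cocaine library 1 alone and Chrm1, Krt79 and Matn3 kept 0 bp in every library.

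With all peaks, 24 genes were shorter in each cocaine library and 10 had a peak in saline libraries only, against 220 and 124 at equal covered length. Among the 10 with all peaks, Itga8, an integrin subunit gene on chromosome 2 (12106632 to 12301985), had 0 bp in every cocaine library and 156, 592 and 1296 bp in the saline libraries. Tnfrsf10b, a death receptor gene on chromosome 14, had 880, 681 and 447 bp in the saline libraries and 0 bp in the cocaine libraries. Sncb, which encodes beta-synuclein, had 741, 220 and 169 bp in the saline libraries only. Plppr3, Adamts20, Phf7, Spata17 and Nhsl2 showed the same pattern with mean lengths in saline from 244.667 bp (Nhsl2) to 449.667 bp (Plppr3). Among genes with a peak in all 6 libraries only 4 were shorter in each cocaine library. Ndrg4, a gene of the N-myc downstream regulated family, had 786, 837 and 451 bp in cocaine and 1578, 1194 and 948 bp in saline libraries, and Atp11a and Tox3 were also among them. Of all genes shorter in each cocaine library, only Atp11a, a phospholipid flippase gene, and Nhsl2 were also shorter in both cuts.

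The longest gains lay in long genes that were already covered. Prdm16, a zinc finger regulator on chromosome 4 (154316122 to 154637360), had 119178, 81339 and 64369 bp in cocaine and 49639, 24036 and 61265 bp in saline libraries. Its groups barely separated, and limma gave an adjusted p of 0.335. Nxn, the nucleoredoxin gene on chromosome 11 (76257226 to 76399141), had the lowest limma p, with 14471, 10014 and 7288 bp against 4300, 785 and 1946 bp (log2 difference 2.29 ± 0.34 SE, limma adjusted p = 1.65e-07). In the cocaine libraries this length was spread over 28, 22 and 18 separate peaks along the gene, against 14, 3 and 5 in the saline libraries. Nfatc1 on chromosome 18, a calcium-regulated transcription factor gene, had 27259, 20419 and 14676 bp against 10137, 9348 and 7861 bp (1.14 ± 0.18 SE, limma adjusted p = 4.51e-07). Grik3, a kainate receptor subunit gene on chromosome 4, had 9206, 6432 and 6907 bp against 4336, 399 and 1224 bp (2.28 ± 0.42 SE, limma adjusted p = 7.63e-05). Tle3, a Groucho-type corepressor gene on chromosome 9, had 9862, 6769 and 6578 bp against 3154, 940 and 1111 bp (2.19 ± 0.40 SE, limma adjusted p = 7.63e-05). Tspan18 (limma adjusted p = 7.63e-05), Slc39a11 (0.00437) and Wwox (0.00437) also rose, while Col27a1 (0.324), Septin9 (0.2), Asic2 (0.291) and Ttc28 (0.0678) did not pass, although each was longer in every cocaine library.

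At equal covered length most of these long genes were not longer in each cocaine library. Col27a1, a collagen gene, had 40588, 18079 and 12085 bp against 11314, 2936 and 7170 bp with all peaks, and at equal covered length it had 4176, 4031 and 5099 bp in cocaine against 1793, 2936 and 3836 bp in saline libraries. It stayed longer in each cocaine library in both cuts, but the difference of means went from 16444 to 1580 bp, and limma passed in neither (adjusted p = 0.324 and 0.521). Septin9, a cytoskeletal GTPase gene on chromosome 11, had 31831, 20392 and 19312 bp in cocaine against 13333, 3502 and 5408 bp in saline libraries with all peaks, and 218, 538 and 2256 bp against 3912, 3502 and 3239 bp at equal covered length. Slc39a11, a zinc transporter gene, went from 29722, 21690 and 17578 bp against 11497, 4351 and 10718 bp to 0, 525 and 2252 bp against 2315, 4351 and 2955 bp. Nfatc1 was left with 8189, 8034 and 6118 bp against 7508, 9348 and 5826 bp, which overlap. Nxn was left with 169, 159 and 3057 bp against 0, 785 and 0 bp.

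Genes called longer with all peaks and in both cuts were fewer, 98 in number. They were ranked by their difference in bp, which favours broadly covered genes. Lhx3 on chromosome 2, a LIM homeobox gene of motor neurons and pituitary, had 12419, 9794 and 10448 bp in cocaine against 8214, 4998 and 6556 bp in saline libraries at equal covered length (log2 difference 0.73 ± 0.18 SE, limma adjusted p = 0.0425). With all peaks its adjusted p in limma was 0.0744. Fam83h and Mapk15, neighbours on chromosome 15 whose windows share peaks, had 4259, 5257 and 5379 bp against 693, 1823 and 0 bp (Fam83h) at equal covered length (limma adjusted p = 0.0425 for Fam83h and 0.0556 for Mapk15). Foxe1, a forkhead gene of thyroid development, had 11418, 12131 and 11604 bp against 7515, 6663 and 8443 bp, which in cocaine library 2 is the whole window of 12131 bp. Tbx1, a T-box gene of pharyngeal development, had 13540, 12796 and 11812 bp against 9997, 6145 and 9797 bp, and Foxe1 and Tbx1 both missed the threshold in limma (adjusted p = 0.0556 each). Six3 and Meis1, homeobox genes, Col2a1, a collagen gene, and Tnfaip2 were also among the first 10 by this rank.

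Hoxb3 and Pax6 also rose at equal covered length. Hoxb3 on chromosome 11 (96307101 to 96347930), in the Hoxb cluster, had 50830, 43725 and 42294 bp in cocaine and 41974, 36903 and 40067 bp in saline libraries (0.20 ± 0.04 SE, limma adjusted p = 0.0155). Cocaine library 3 was close to saline library 1 there, and with all peaks the order of these libraries was the other way round (43300 and 44486 bp, limma adjusted p = 0.219). Pax6 on chromosome 2 (105668896 to 105698410), a paired-box gene of eye and forebrain, had 21063, 23305 and 18745 bp against 16948, 14731 and 15980 bp (0.40 ± 0.09 SE, limma adjusted p = 0.0157). With all peaks it lay in 5, 6 and 6 peaks in cocaine and 13, 10 and 10 peaks in saline libraries, that is, in fewer peaks in each cocaine library, with covered lengths of 24169, 23305 and 18745 bp against 19810, 14731 and 17843 bp that overlapped.

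**Figure D3:**
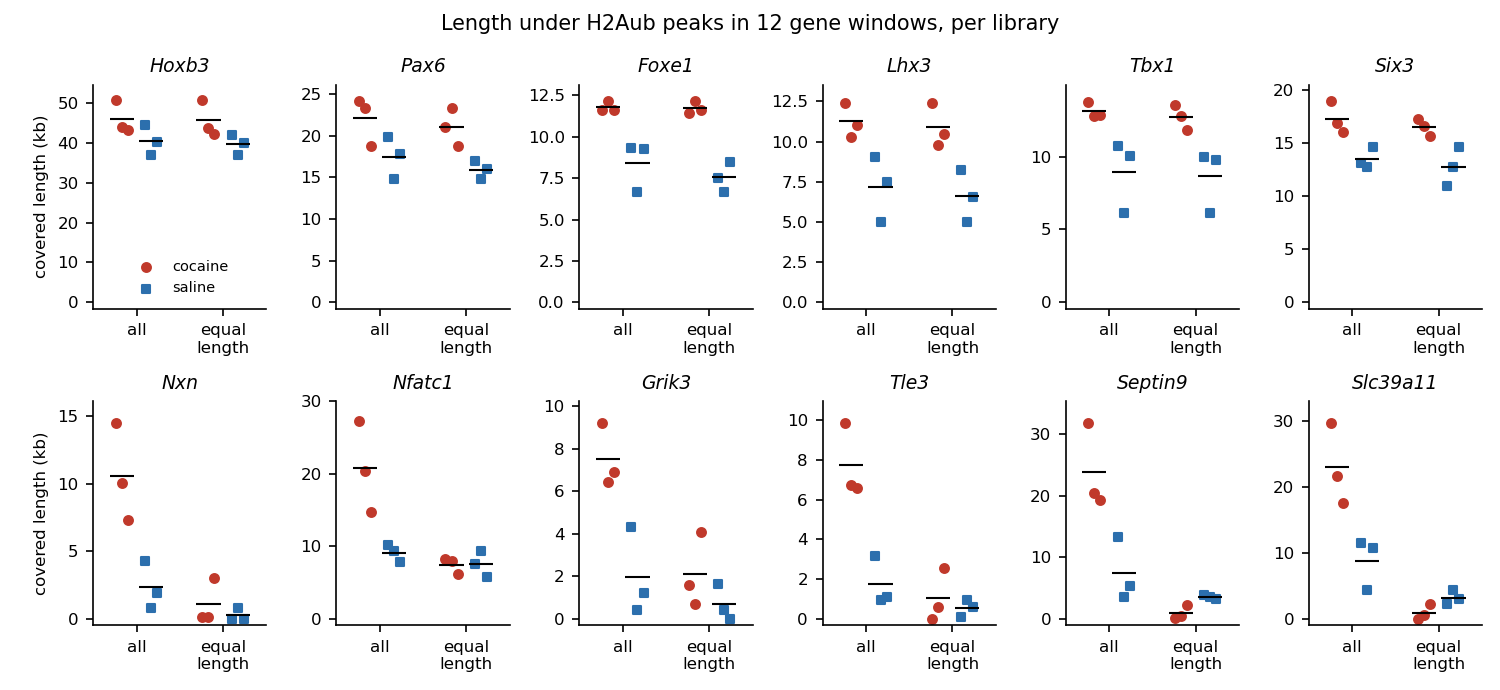
Covered length in kb per library (circles, cocaine; squares, saline; lines, group means) in the windows of 12 genes, with all peaks and at equal covered length. The top row holds developmental regulators with a higher cocaine mean in both (Lhx3, 10300 to 12419 bp against 4998 to 9073 bp with all peaks), and the bottom row holds genes whose difference shrinks or turns at equal covered length.

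**Figure D4:**
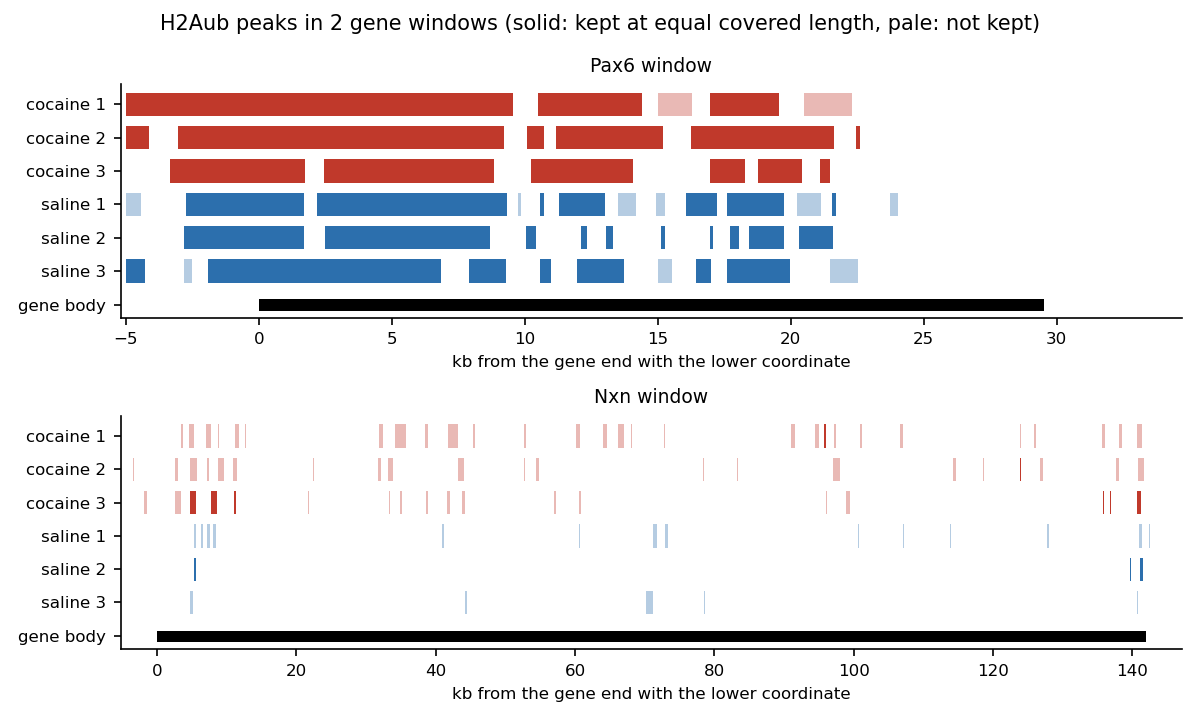
Peaks of each library (bars) across the windows of Pax6 and Nxn, as distance in kb from the gene end with the lower coordinate; solid bars are peaks kept at equal covered length and the black bar is the gene body. Over Pax6 the cocaine peaks are fewer (5, 6 and 6 against 13, 10 and 10), and over Nxn they are more numerous (28, 22 and 18 against 14, 3 and 5) and mostly not kept.

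Gene families were chosen by symbol, and 18 of 46 did not overlap between groups with all peaks, each with more covered length in cocaine libraries. At equal covered length 6 had more and 1 had less in each cocaine library. The 5.81% of all genes longer in each cocaine library counts 13687 genes that had no peak and could not be called. Among the 8200 genes with a peak the share was 15.5%, and among the 2087 with a peak in all 6 libraries 30.6% (1.76 and 6.47% at equal covered length). The 5.81% is therefore low beside a family whose members mostly have a peak, for which 15.5% is the closer share. The same holds for 0.658% at equal covered length, where 1.76% is closer. Over their members with a peak, the share was 16.9% in axon guidance, 20.3% in potassium channel, 21.2% in forkhead and 25.0% in synaptic adhesion genes. It was 35.7% in neural bHLH, 40.0% in dopamine, noradrenaline and monoamine transport and 57.9% in Wnt genes. Families of developmental transcription factors were widely covered in every library, with ratios of mean covered length, cocaine over saline, from 1.12 to 1.42. All 39 Hox genes had a peak in all 6 libraries. The union of their windows had 426, 380 and 364 kb under peaks in cocaine and 368, 302 and 375 kb in saline libraries, which overlap (ratio of means 1.12), and 7 of 39 genes were longer in each cocaine library (17.9%, against 5.81% of all genes and 30.6% of those with a peak in all 6 libraries). The ratio was the same (1.12) at equal covered length, where 6 genes were longer (15.4%, against 0.658% of all genes and 6.47% of those with a peak in all 6 libraries) and 0 shorter. Hoxd13, with 13379, 12388 and 12182 bp against 11199, 8632 and 10295 bp, had the largest difference of means among the 7. Its window is 13379 bp long, so cocaine library 1 covered all of it.

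Of the 44 forkhead genes, 33 had a peak and 7 were longer in each cocaine library (15.9%, against 5.81% of all genes). In limma 1 of 33 rose, against 2.65% of all genes tested (Foxq1, 9194, 5888 and 5379 bp against 3125, 2546 and 2419 bp, adjusted p = 0.0275). The family had 233, 207 and 195 kb against 188, 151 and 180 kb with all peaks and 195, 181 and 179 kb against 155, 151 and 169 kb at equal covered length, without overlap in either, and at equal covered length 9 members were longer (20.5%, against 0.658% of all genes) and 0 shorter. Foxd3 was covered over its entire 12373 bp in every cocaine library and over 11961, 11660 and 11829 bp in the saline libraries. The 9 Pax genes, regulators of neural tube and organ patterning, had 178, 161 and 137 kb in cocaine against 138, 105 and 134 kb in saline libraries with all peaks, which overlap, and 142, 126 and 121 kb against 116, 105 and 116 kb at equal covered length, without overlap. Pax7 rose with all peaks (26737, 26717 and 20887 bp against 20513, 15106 and 16775 bp, limma adjusted p = 0.0168). Of the 31 neural bHLH genes, which drive neuronal and oligodendrocyte fates, 10 were longer in each cocaine library (32.3%, against 5.81% of all genes), among them Olig2 and Bhlhe23, and 1 of 27 tested rose in limma, against 2.65% of all genes tested (Atoh8, 36301, 27070 and 25245 bp against 23345, 14035 and 25818 bp, adjusted p = 0.0162, with cocaine library 3 below saline library 3). This family did not overlap between groups with all peaks (ratio of means 1.35) or at equal covered length (1.22), and nor did the 15 Pou genes (1.42 and 1.21).

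The Wnt ligands had the highest share of members called among the 46 families. All 19 had a peak, 18 of them in all 6 libraries, and 11 were longer in each cocaine library (57.9%, against 5.81% of all genes). Their windows together had 102, 100 and 76.3 kb in cocaine and 74.7, 43.0 and 53.7 kb in saline libraries (ratio of means 1.63), and 50.4, 54.6 and 57.5 kb against 47.2, 43.0 and 38.5 kb at equal covered length (1.26), without overlap in either. Wnt10a had 12895, 12499 and 7448 bp against 6775, 2586 and 4435 bp (limma adjusted p = 0.000823), and Wnt9b had 6204, 8547 and 5865 bp against 3261, 1517 and 2272 bp (limma adjusted p = 0.0068). Wnt8b rose as well (11990, 9006 and 7839 bp against 6922, 3555 and 5299 bp, limma adjusted p = 0.0413) and was among the 3 Wnt genes called longer at equal covered length (15.8%, against 0.658% of all genes). In limma 3 of 19 thus rose with all peaks, against 2.65% of all genes tested. The 24 hedgehog, Bmp and Gdf genes had a ratio of 1.71 with all peaks, and 7 were longer in each cocaine library (29.2%, against 5.81% of all genes). In limma 2 of 18 tested rose, against 2.65% of all genes tested, namely Shh (9206, 6931 and 4297 bp against 3556, 1147 and 1797 bp, limma adjusted p = 0.00536) and Bmp7 (limma adjusted p = 0.0371). This family overlapped at equal covered length (1.22). The 22 Fgf genes went from 1.76 to 0.905.

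Most families of neuronal genes had larger ratios with all peaks than the transcription factor families, and most had ratios under 1 at equal covered length. In that cut gains and losses nearly cancel by construction, so ratios under 1 are not independent of gains elsewhere. Axon guidance genes (75 members, 59 with a peak) had 166, 149.5 and 94.9 kb in cocaine and 110, 41.0 and 66.0 kb in saline libraries, a ratio of 1.89 with overlapping groups. Of these genes 10 were longer in each cocaine library (13.3%, against 5.81% of all genes), and 6 of 56 tested passed in limma, against 2.65% of all genes tested. Ntng2, a netrin-G gene, had 9756, 8846 and 5603 bp against 3823, 1420 and 1739 bp (adjusted p = 0.000435), and Ntn1, which encodes the guidance cue netrin-1, had 13479, 14853 and 9121 bp against 9299, 3622 and 4295 bp (adjusted p = 0.000463). Plxnd1, a semaphorin receptor gene, and Slit3, the gene of a repulsive ligand, rose too (limma adjusted p = 0.00785 and 0.00951). The axon guidance ratio was 0.773 at equal covered length. Among 62 synaptic adhesion genes, 9 were longer in each cocaine library (14.5%, against 5.81% of all genes) and 3 of 30 tested rose in limma (2.65% of all genes tested), namely Lingo1 (8881, 6587 and 6483 bp against 5597, 1298 and 563 bp, adjusted p = 0.000435), Flrt1 (adjusted p = 0.0041) and Nrxn2, a presynaptic neurexin gene (adjusted p = 0.0311). This family's ratio was 2.06 with all peaks and 0.907 at equal covered length.

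Of 93 potassium channel genes, 15 were longer in each cocaine library (16.1%, against 5.81% of all genes) and 3 of 60 tested rose in limma (2.65% of all genes tested), among them Kcnj4, an inward rectifier gene, with 8583, 10027 and 7142 bp against 6314, 2311 and 4482 bp (adjusted p = 0.0236). With lists equally long, Kcnj4 had 0, 1758 and 1500 bp against 5045, 2311 and 3712 bp, shorter in each cocaine library, and the family ratio went from 1.79 to 0.816. Calcium and sodium channel genes (40 members, 11 longer in each cocaine library, or 27.5%, against 5.81% of all genes) went from a ratio of 1.98 to 0.691. Cacna1a, the gene of the P/Q-type channel pore, was an exception. It had 3649, 3698 and 3955 bp against 1341, 0 and 778 bp with all peaks (limma adjusted p = 0.0068) and 1258, 1024 and 1549 bp against 150, 0 and 125 bp at equal covered length. Of the 26 glutamate receptor genes, 5 were longer in each cocaine library (19.2%, against 5.81% of all genes). In limma 2 of 14 tested rose, against 2.65% of all genes tested, namely Grik3 and Grin2c (5285, 6014 and 4421 bp against 2288, 1762 and 543 bp, limma adjusted p = 0.0112), and the ratio went from 2.25 to 0.801. The 26 GABA and glycine receptor genes had 6 members with a peak and 0 called by any rule with all peaks, where 5.81% of all genes were longer in each cocaine library. Of the 57 clustered protocadherin genes, which give neurons their surface identity, 35 had a peak and 0 were called, against 15.5% of all genes with a peak longer in each cocaine library and 2.65% of genes tested in limma. Their windows overlap and share a few short peaks, together 2.35, 1.31 and 1.04 kb in cocaine and 1.19, 0.664 and 1.27 kb in saline libraries. The 35 genes are thus not separate chances to be called, and the count says little about the family. The clustered protocadherin genes were the family with less in each cocaine library at equal covered length, although the stretch is short (0 kb in every cocaine library against 0.128, 0.664 and 1.27 kb).

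Among genes tied to cocaine's actions, 8 of 25 dopamine, noradrenaline and monoamine transport genes were longer in each cocaine library (32.0%, against 5.81% of all genes). Over members with a peak the share was 40.0%, against 15.5% of all genes with a peak. In limma 0 of 20 tested passed, against 2.65% of all genes tested. Slc6a3, the dopamine transporter that cocaine blocks, had 2516, 1931 and 1105 bp in cocaine against 859, 310 and 496 bp in saline libraries (limma adjusted p = 0.267), and Drd4 had 4165, 5200 and 2373 bp against 2360, 1184 and 1710 bp (0.201). The family did not overlap with all peaks (ratio 1.92) and did at equal covered length (0.942), where Adra2a, an adrenergic receptor gene, was the only member called longer (4%, against 0.658% of all genes) and 2 were called shorter (8%, against 1.01%). Of these, Adrb1, another adrenergic receptor gene, then had 0 bp in every cocaine library and 622, 1198 and 1688 bp in the saline libraries. Of 54 opioid and neuropeptide genes, 13 were longer in each cocaine library (24.1%, against 5.81% of all genes). Over members with a peak the share was 28.9%, against 15.5%. Among the 13 was Pdyn, the dynorphin precursor gene, with 1694, 2389 and 1135 bp against 0, 0 and 1066 bp (limma adjusted p = 0.0878). The ratio of this family went from 1.89 to 0.802. The immediate early genes, which neurons induce on activity, had 24 members. Of these, 5 were longer in each cocaine library (20.8%, against 5.81% of all genes), namely Egr2, Fosb, Arc, Ier5 and Npas4. Over members with a peak the share was 25.0%, against 15.5% of all genes with a peak. In limma 0 of 20 tested passed, against 2.65% of all genes tested. Egr2 had 6292, 6596 and 5741 bp against 3963, 3680 and 3713 bp with all peaks and 6292, 6596 and 5741 bp against 3496, 3680 and 3389 bp at equal covered length.

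**Figure D5:**
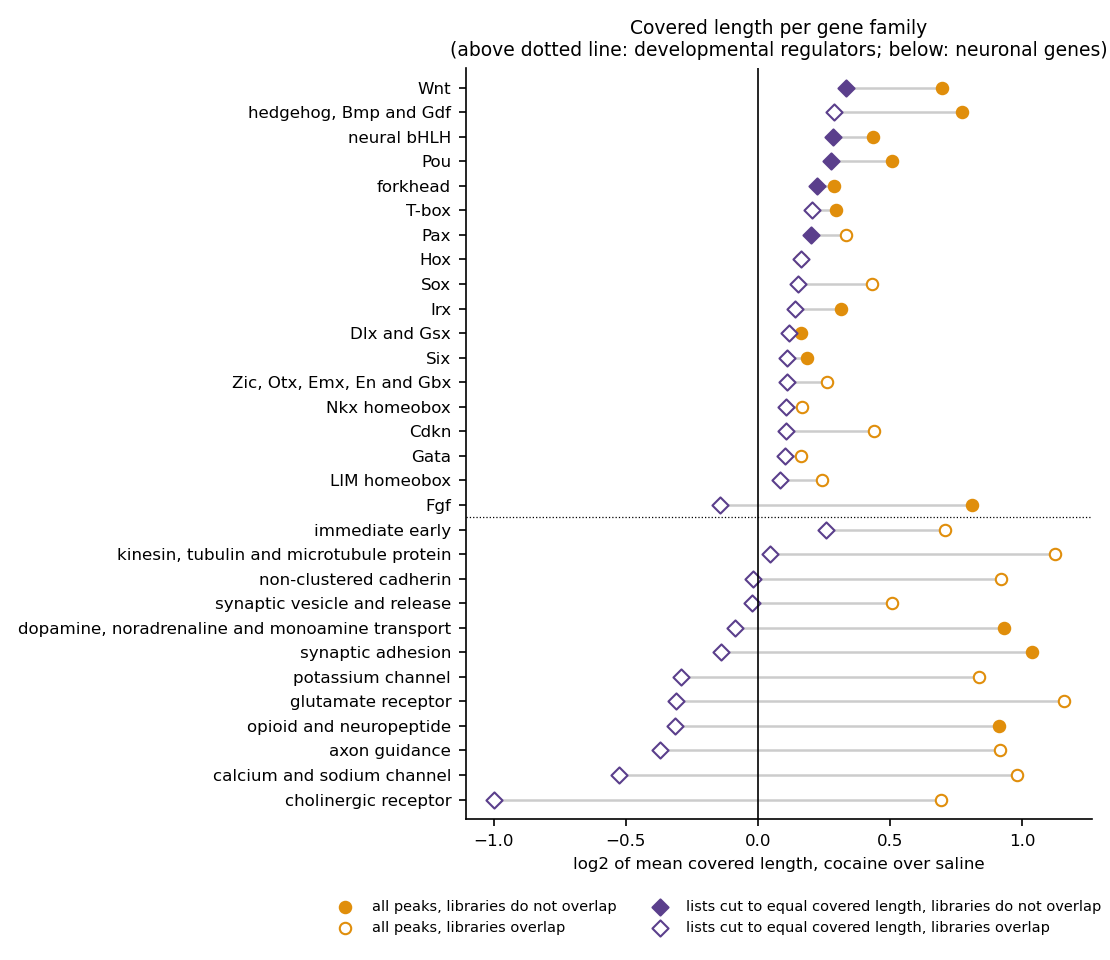
Log2 ratio of mean covered length, cocaine over saline, for families with a saline mean of at least 5 kb, with all peaks (circles) and at equal covered length (diamonds); filled symbols are families whose 3 cocaine libraries all lie above the 3 saline libraries. Developmental regulators keep a positive ratio except Fgf, whereas most neuronal families move to or below 0 at equal covered length.

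Of 29 genes for H2A ubiquitin writers and PRC1 subunits, 16 had a peak and 4 were longer in each cocaine library (13.8%, against 5.81% of all genes), namely Cbx7, Pcgf1, Pcgf2 and Scml4. At equal covered length 3 were longer (10.3%, against 0.658% of all genes). The family's ratio of means was 1.73 without overlap with all peaks and 1.03 with overlap at equal covered length. Cbx7, a chromodomain subunit, rose, with 2469, 2723 and 2740 bp against 809, 183 and 0 bp (limma adjusted p = 0.0204). Among 13 erasers and Maged1 partners, 3 had a peak in any library and 0 were called, against 15.5% of all genes with a peak longer in each cocaine library. With 3 such members, this count cannot set them apart from all genes. Maged1 itself had 0 bp in all 6 libraries, and Usp7 had 327 bp in cocaine library 3 alone. Of the other genes that the study names, Scml4, a PRC1-linked gene, had 2652, 1713 and 2216 bp against 1331, 144 and 858 bp (limma adjusted p = 0.194). At equal covered length Scml4 had 0, 0 and 847 bp against 0, 144 and 0 bp, which overlap. Hopx, a homeodomain-only cofactor, had 2520, 1981 and 1134 bp against 1501, 404 and 1312 bp, and C1ql3, a secreted synaptic organiser, had 0, 558 and 1134 bp against 469, 325 and 387 bp, and both overlap between the groups (limma adjusted p = 0.487 and 0.999). For C1ql3, Hopx and Scml4 the study reports lower expression and more H2Aub at the promoter, from peaks shared between replicates. The windows here are larger and the rule differs, so these values do not check that report.

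Cell type marker lists, which in this assay say where the mark lies and not which cells were present, held called members at 16.7% (thalamic neuron), 22.2% (astrocyte), 37.5% (oligodendrocyte) and 28.6% (microglia) of those with a peak, where all genes with a peak gave 15.5%. Of 19 thalamic neuron markers 3 were longer in each cocaine library, of 10 astrocyte markers 2, of 13 oligodendrocyte markers 3 and of 12 microglia markers 2, with Rgs16 the only one to pass in limma (adjusted p = 0.0413). Csf1r, a microglial receptor gene, was shorter in each cocaine library, with a peak in each saline and in 2 of the 3 cocaine libraries. The astrocyte list alone did not overlap at equal covered length, with 10.3, 11.7 and 9.44 kb in cocaine against 8.34, 7.87 and 7.34 kb in saline libraries. Of 1110 olfactory receptor genes 24 had a peak in any library, of 84 ribosomal protein genes 10 and of 99 histone genes 15, and 0 members of these families were called in either direction with all peaks. The windows of the olfactory receptor genes together still had 1.96, 3.72 and 2.54 kb in cocaine and 1.16, 0.281 and 1.14 kb in saline libraries (ratio of means 3.18), without overlap, and the ratio was 1.15 with overlap at equal covered length. Of 337 solute carrier genes, 28 were longer in each cocaine library (8.31%, against 5.81% of all genes). Over members with a peak the share was 15.2%, about the 15.5% of all genes with a peak. The family did not overlap between groups with all peaks (ratio 1.96) and did at equal covered length (0.886).

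The same genes were looked up in the cKO libraries, 2 from cocaine and 3 from saline mice. Of the 1272 genes longer in each WT cocaine library, 142 (11.2%) were also longer in each cKO cocaine than in each cKO saline library, against 2.52% of all protein-coding genes. Without the cKO libraries numbered 1, which leaves 1 against 2 libraries, the shares were 65.6% and 17.6%. In that setting 11 of the 24 genes shorter in each WT cocaine library (45.8%) were likewise longer and 0 shorter, so a share above that of all genes was not particular to the genes longer in WT. Whether WT and cKO mice differ in this was not tested. Pax6 had 15667 and 22566 bp in the cKO cocaine and 14694, 20739 and 11568 bp in the cKO saline libraries, which overlap.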

How the data were processed

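The authors trimmed adapters with Cutadapt, mapped reads to mm10 with Bowtie2 2.3.4.1, kept mapping quality above 30 and called broad peaks with MACS2 2.1.1.20160309.3 against total input, 1 list per library. The deposited lists give −log10 p and −log10 q, a fold enrichment (a linear ratio) and a score derived from q; 10.3 to 30.9% of peaks per list exceeded a q of 0.05. Only peak positions were used, with −log10 p as the rank. Peaks on the 19 autosomes, X and Y were intersected with windows of the GRCm38.p6 annotation, which gives no strand (Python 3.11.15). Covered length was tested with limma 3.58.1 (trend, robust, Benjamini-Hochberg) on log2(bp + 200), and library values by exact permutation. Families and gene lists were chosen with earlier results of these data known. Named genes were those with the longest presence-only coverage, the largest differences, the lowest limma p, up to 4 members per family with the highest coverage or called by a rule, and the study's own. Replicates are separate pools per the labels, but the lists of a group may share an input. The tests treat the lists as independent, and the effect of the input was not tested. Alternatives are given at the end. No cKO or input library entered a test. Some genes that these rules pick are not reported here.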

Additional observations from a re-analysis of the deposited data

How the results depend on the processing

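Genes with a peak turned at equal covered length (log2 difference −0.69), and so did the share of covered length in gene windows (2.81 percentage points at equal covered length and 0.0208 with the gene body only, against −3.12). Genes longer and shorter in each cocaine library, and with a peak in cocaine or saline libraries only, numbered 144, 220, 4 and 124 at equal covered length, 730, 66, 69 and 32 at equal peak number and 1988, 44, 269 and 17 over all annotated genes. Scaled to total length, 619 were longer and 203 shorter. With the gene body only, 4 had a peak in saline libraries only. limma called 5 at equal covered length, 79 at equal peak number, 29 with the gene body only, 83 without a filter and 8 after scaling. Leaving out 1 library gave 1348 to 2534 longer and 34 to 200 shorter genes, 184 to 528 and 14 to 74 by presence, 12 to 783 longer and 0 to 1 shorter in limma, log2 differences of 0.642 to 1.14 in genes with a peak in all 6 libraries, 0.509 to 0.937 for window length and 0.203 to 0.597 for genes with a peak, and −4.64 to −0.716 percentage points. The smaller number of libraries itself loosens the count rules.

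At equal covered length 21 of 46 families went below 0 on the log2 ratio of means (200 bp added), and all 46 were above 0 with all peaks. Among families whose groups did not overlap with all peaks these were Fgf (−0.14), dopamine, noradrenaline and monoamine transport (−0.085), opioid and neuropeptide (−0.32), synaptic adhesion (−0.14), Polycomb repressive complex 2 (−0.90) and solute carrier genes (−0.17). Families that overlapped with all peaks and went below 0 included potassium channel (−0.29), calcium and sodium channel (−0.52), glutamate receptor (−0.31), axon guidance (−0.37) and thalamic marker genes (−0.16). Genes named above only as family members, such as Kcnj4, which also turned, are not in the following counts. Of the other 54 named genes, 38 had a higher cocaine mean with all peaks, and 10 of these turned. Among the 54, genes longer in each cocaine library with all peaks that turned were Prdm16 (−4466 bp), Septin9 (−2547), Slc39a11 (−2281), Nfatc1 (−114), Asic2 (−3542), Ttc28 (−2345), Tspan18 (−1319) and Wwox (−343). Hopx (−273 bp) and C1ql3 (−108 bp), whose groups overlapped with all peaks, turned as well, and 27 of 54 moved by no more than the replicate SD.

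Chosen after seeing the data, ranking peaks by fold enrichment gave 168 longer and 226 shorter genes at equal covered length, 111 and 142 of them shared with the ranking by p. Leaving out 1 library and cutting the other 5 to 5.55 Mb gave 219 to 338 longer and 264 to 527 shorter genes. Without saline library 2 the shortest list was 8.41 Mb, and that longer cut gave 422 and 606. Without cocaine library 1 the longer genes (338) outnumbered the shorter (264), and without each other library the shorter were more.

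Replicate numbers did not pair the samples (r of deviations 0.0144, 0.0751 and −0.0071 for libraries 1, 2 and 3). With a replicate block limma called 216 longer genes, and 2151 genes were longer and 55 shorter in each of 3 same-numbered pairs. The cause of these changes was not tested. Depth per library is unknown, so no limit of detection could be set.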
